A study of Mus musculus with 8 samples.

Results

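OM2i-iPSC are cells that arose from mouse embryonic fibroblasts (MEF) given combinations of oxysterol and then cultured with 2i and LIF, and they are compared here with MEF. The comparison consists of 2 of the 8 samples of the series, taken by their titles, with 1 Agilent 1-colour array for OM2i-iPSC and 1 for MEF. Of 27619 genes on the array, 21966 were compared, because the signal of OM2i-iPSC, of MEF or of both was well above background. The other 6 samples were an embryonic stem cell array (ES, genetic background 129/Ola), an array of cells from purmorphamine-treated MEF cultured with 2i and LIF (PM2i-iPSC), both of the same design, and 4 Affymetrix arrays not used here. The labels give the developmental stage as embryo for OM2i-iPSC, PM2i-iPSC and MEF and as blastocysts for ES, and they state no strain, sex, passage, clone or transgene for OM2i-iPSC or MEF. With 1 array a side there are no biological replicates and no test, so every difference below describes these 2 libraries.

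Fibroblasts are connective tissue cells that build and remodel collagen-rich matrix and pull on it with actin stress fibres. Reprogramming to a pluripotent state closes this mesenchymal program, turns on an epithelial one and activates a transcription factor network around Pou5f1, Sox2 and Nanog. 2i is a pair of inhibitors of MEK and GSK3 and LIF is a cytokine, and together they hold mouse embryonic stem cells in the naive state. Oxysterols are oxidised cholesterol derivatives that can activate Hedgehog signalling through Smo and serve as ligands of the LXR sterol receptors.

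A level below is the log2 processed signal minus the 75th percentile of its array, so that 0 marks the 75th percentile, and a difference is the OM2i-iPSC level minus the MEF level. The 75th percentile was a signal of 3461 on the OM2i-iPSC array and 1877 on the MEF array, and 66.3% and 72.8% of spots were well above background. The lowest level well above background was -4.60 in OM2i-iPSC and -6.85 in MEF, and the lowest saturated level was 4.01 in OM2i-iPSC and 4.90 in MEF. A gene whose spot was flagged as saturated or as not well above background on an array is given as at least a fold. No fold is given where neither side can be bounded. Repeated spots of a probe on an array differed by an SD of 0.19 in OM2i-iPSC and 0.13 in MEF (log2), which gives 0.24 for a difference and leaves out all variation between cultures. The arrays lay on different slides, were scanned on different days and were extracted with different versions of the scanner software, so none of these can be told apart from the cells.

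Of the genes compared, 7928 exceeded MEF by 2-fold or more in OM2i-iPSC (36.1%) and 5222 fell below it by as much (23.8%), while 6989 lay within 2-fold and 1827 had no fold. These shares are of all genes compared, of which 20139 had a fold. Counts of higher and lower members of lists and families are out of members with a fold. By 4-fold or more, 5262 genes were higher (24.0%) and 2558 lower (11.6%). The median difference was 0.35, and Pearson's r of the levels across all 27619 genes, which are not independent, was 0.814. The split depends on the scaling: with each array centred on its median, every difference moved by -0.74, and 5897 genes were higher and 7865 lower. Most of the higher genes were dim, with 5197 of the 7928 below the 75th percentile in OM2i-iPSC, whereas 3500 of the 5222 lower genes were above it in MEF. Among olfactory receptor genes, a family expected to be silent in either cell, 491 were compared and 356 had a fold. Of these 356, 221 exceeded MEF by 2-fold or more, and the median of the 356 was 1.70. Whether signal near background at the dim end of the OM2i-iPSC array adds to the higher counts was not tested.

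**Figure D1:**
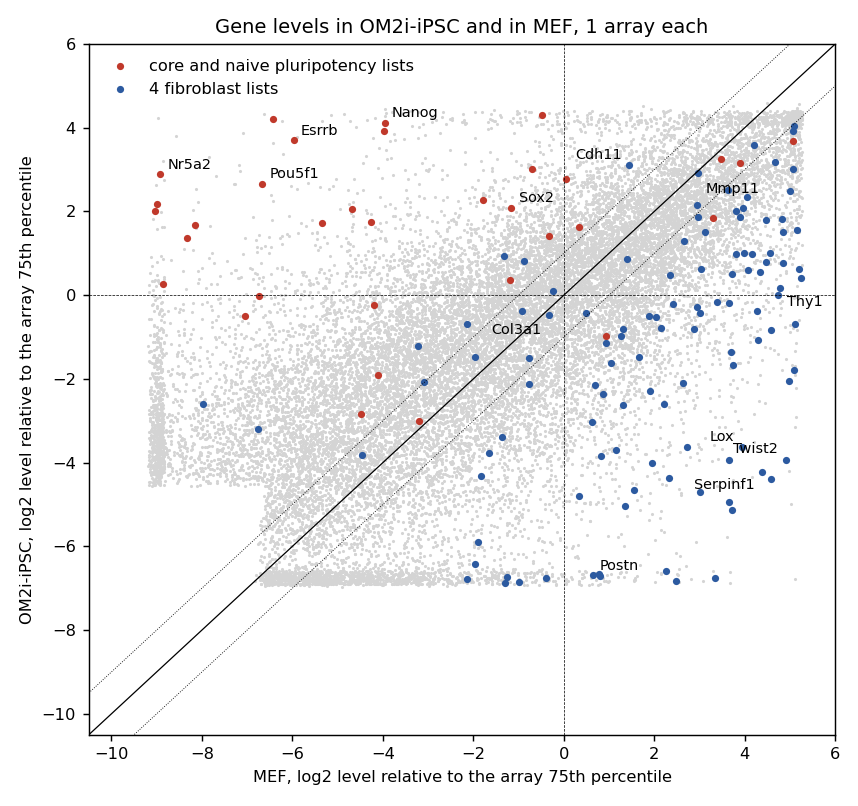
Level of every gene compared in OM2i-iPSC (vertical axis) against MEF (horizontal axis), each as log2 signal relative to the 75th percentile of its array, with 1 array each. The solid line marks equal levels, dotted lines mark 2-fold and dashed lines the 75th percentiles. Pluripotency genes (red) lie mostly above the diagonal and fibroblast genes (blue) below it, with Cdh11, Mmp11 and Col3a1 among the blue points near or above the line.

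The cell labels were set against marker genes. Of 8 markers of pluripotent cells, 7 were at least 2-fold higher in OM2i-iPSC and above its 75th percentile, and none was above that percentile in MEF. The exception was Utf1, a chromatin factor of stem cells, at -3.01 in OM2i-iPSC and -3.19 in MEF. Of 8 fibroblast markers, 7 were above the 75th percentile in MEF and 7 were lower in OM2i-iPSC by 2-fold or more, and the exception, Col3a1, is described with its probes below. Of 7 trophoblast markers, 5 were compared, and Cdx2, Eomes, Hand1 and Krt7 were at least 2-fold higher in OM2i-iPSC and Gata3 was lower. The other probe of Krt7 was lower by 2.76 on the log2 scale. Of 5 primitive endoderm markers, 4 had a fold, and Sox17 and Sox7 were at least 2-fold higher and Dab2 lower. The one without a fold, the transcription factor gene Gata6, was high on both arrays by its brightest probe, at 4.09 in OM2i-iPSC (saturated, no fold) and 4.50 in MEF, and its other probes were higher by 1.32 and at least 3.48. Of 4 blood cell markers, Ptprc, Adgre1 and Csf1r were at least 2-fold lower and none was higher by as much. The other probe of Adgre1 was higher by 2.75, and those of Csf1r by 0.696 and 1.80. Of 4 neural markers with a fold, Pax6 and Sox1 were higher and none was lower. The endothelial markers were split, with Tek higher and Cdh5 lower. Of the neural, endothelial and blood markers, only Cd68 was above the 75th percentile in OM2i-iPSC, at 0.47 in OM2i-iPSC and 0.08 in MEF.

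The core pluripotency genes made up the widest gain of the 28 lists, with a median difference of 6.89. In OM2i-iPSC 14 of 16 were higher by 2-fold or more and 1 lower, beside 36.1% higher among all genes compared. Pou5f1, the POU factor at the centre of the network, had a level of 2.66 in OM2i-iPSC against -6.66 in MEF, a 641-fold difference. Nanog, its homeobox partner, stood at 4.12 in OM2i-iPSC and -3.96 in MEF and was at least 271-fold higher, with the OM2i-iPSC spot saturated. Both genes were below the median of the MEF array, which was -3.31, and above the 75th percentile of the OM2i-iPSC array. Sox2, the SOX factor that binds DNA with Pou5f1, was 9.52-fold higher, at 2.09 in OM2i-iPSC and -1.16 in MEF. Sall4, a zinc finger factor, was at least 1583-fold higher and Lin28a, an RNA-binding protein that blocks let-7 maturation, was at least 519-fold higher. Dppa4, a chromatin-associated stem cell protein, was at least 298-fold higher. Foxd3, a forkhead factor of stem cells and neural crest, ran the other way, at 1.84 in OM2i-iPSC and 3.29 in MEF.

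The naive regulators split. Of 17 with a fold, 13 were higher by 2-fold or more and 2 lower, with a median of 2.71. Over all genes compared, 36.1% were higher by as much. Nr5a2, an orphan nuclear receptor that binds the Pou5f1 gene, had a level of 2.89 in OM2i-iPSC against -8.92 in MEF and was at least 857-fold higher, with the MEF spot not well above background. Esrrb, another orphan nuclear receptor of the naive network, was at 3.70 in OM2i-iPSC and -5.97 in MEF, 813-fold higher. Nr0b1, an orphan receptor that represses transcription, was at least 468-fold higher, Fbxo15, an F-box protein used as a stem cell reporter, at least 369.5-fold, and Tfcp2l1, a grainyhead-related factor, 106-fold. These 5 genes were below the median of the MEF array. Klf4, a reprogramming factor, was at 3.26 in OM2i-iPSC and 3.48 in MEF, and Tbx3, a T-box factor, was at 3.15 in OM2i-iPSC and 3.90 in MEF. Gbx2, a homeobox gene, was 3.77-fold lower, and Stat3, the transcription factor of LIF signalling, was at least 2.61-fold lower with the MEF spot saturated. The other probe of Stat3 was higher by 2.06, so its direction depended on the probe.

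Of 12 genes of the primed state and of early differentiation, 7 had a fold. All 7 were at least 2-fold higher in OM2i-iPSC, with a median of 3.98, beside 36.1% higher among all genes compared. T, Cer1, Mixl1 and Zic5 were not well above background on either array. Pou3f1 had no fold and was well above background only in MEF, at -6.01. Nodal, a TGF-beta family ligand of the early embryo, was at 3.29 in OM2i-iPSC against -3.06 in MEF, 81.3-fold higher. Its inhibitor Lefty1 was 15.7-fold higher. Otx2, a homeobox gene of the epiblast, was at least 85.8-fold higher but lay at -0.43 in OM2i-iPSC, below the 75th percentile, and Eomes, a T-box gene, stood at -2.28 in OM2i-iPSC and -6.53 in MEF. Of the members with a fold, Nodal and Lefty1 were the only ones above the 75th percentile on the OM2i-iPSC array.

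The epithelial list had 17 of 22 at least 2-fold higher, 3 lower and a median of 2.44, beside 36.1% higher over all genes. Cdh1, the E-cadherin of epithelial junctions, was at 1.98 in OM2i-iPSC against -8.91 in MEF and was at least 456-fold higher. The tight junction claudin Cldn7 was at least 1065-fold higher, at 3.21 in OM2i-iPSC and -8.86 in MEF, and Cldn6 was 141-fold higher. Epcam, an epithelial adhesion molecule, was 40.9-fold higher and Dsg2, a desmosomal cadherin, 39.8-fold. Cldn3, another claudin, was 4.62-fold lower, and Rab25, an epithelial trafficking GTPase, at least 2.59-fold lower. The gain of the claudins was therefore not shared by all of them.

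The germline and 2-cell-stage list had 20 of 24 members higher, with a median of 4.54, where 36.1% of all genes were higher. Mael and Stk31, both of the piRNA pathway or its germ granules, were at least 198-fold and at least 148-fold higher. Tex19.1, which guards the germline against retrotransposons, was at least 155-fold higher, and the meiotic chromosome genes Sycp1 and Hormad1 were 110.3-fold and at least 108-fold higher. Zscan4c, a marker of the 2-cell-like state of stem cells, stood at 1.07 in OM2i-iPSC and -4.79 in MEF. Dazl, a germ cell RNA-binding protein, was 13.7-fold lower by its brightest probe, while its other probe was higher by at least 4.76 on the log2 scale. Most members were higher, and the direction of Dazl depended on the probe.

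Regulators of other lineages were higher less evenly. Cdx2, the caudal homeobox factor that specifies trophoblast, was at 0.41 in OM2i-iPSC against -6.73 in MEF and at least 141-fold higher, while it was at -3.05 in ES and -3.25 in PM2i-iPSC. Of the 12 trophoblast and caudal genes, 8 were higher and 4 lower, with a median of 1.95. The AP-2 factors Tfap2c and Tfap2a were 64.2-fold and 20.0-fold higher, and the zinc finger factors Gata3 and Gata2 were 28.1-fold and 10.3-fold lower. The endoderm list had 6 of 10 higher and 3 lower (median 2.02), and both Sox7, at -0.77 in OM2i-iPSC and -4.62 in MEF, and Sox17, at -3.09 in OM2i-iPSC and -7.01 in MEF, stayed below the 75th percentile. The neural and glial list had 10 of 19 higher and 3 lower (median 1.08). Its widest member, the myelin gene Mobp, was 36.5-fold higher, and Gfap, the astrocyte filament, was at least 22.6-fold lower. The mesoderm list had 4 of 7 higher and 2 lower, and the endothelial and blood list 5 higher and 5 lower of 11. None of these lists moved in 1 direction, where 36.1% of all genes compared were at least 2-fold higher and 23.8% lower.

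**Figure D2:**
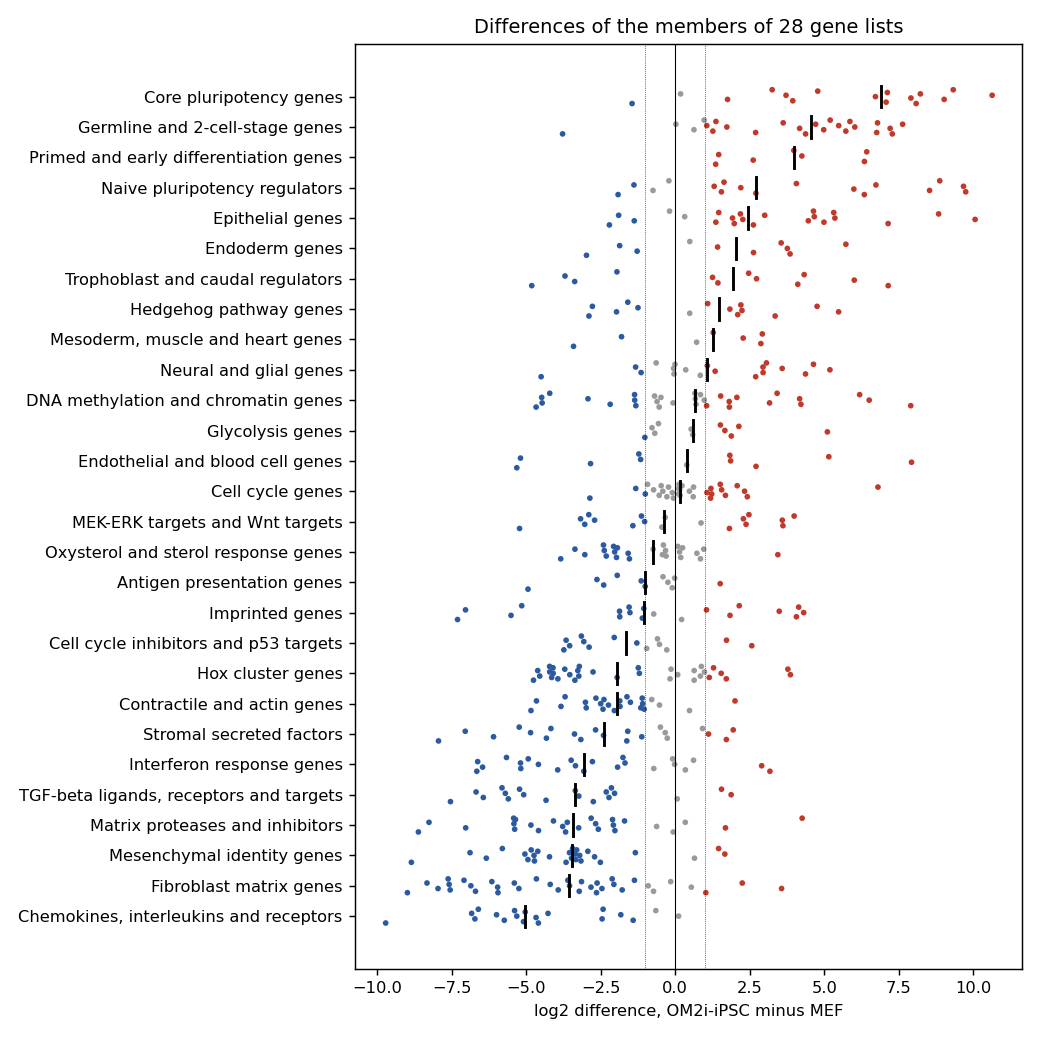
Difference of each list member, OM2i-iPSC minus MEF on the log2 scale (horizontal axis), for the 28 gene lists ordered by their median (black bar), with 1 array each. Red points are at least 2-fold higher in OM2i-iPSC, blue points at least 2-fold lower and grey points within 2-fold. Core pluripotency genes have the highest median, 6.89, and chemokine genes the lowest, -5.03.

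The largest differences over all genes, among those measured on both arrays, ran in both directions. The 10 highest were Hykk, Ranbp17, Esrrb, Tex13b, Pou5f1, Tcf23, Mreg, Ina, Fam25c and Slc52a3, between 349.8-fold and 1068-fold higher in OM2i-iPSC. Hykk, a hydroxylysine kinase, was at 3.64 in OM2i-iPSC and -6.42 in MEF, and Ranbp17, a nuclear transport receptor, at 3.77 in OM2i-iPSC and -5.91 in MEF. Only Esrrb and Pou5f1 of these are on the pluripotency lists. The 10 lowest were Twist2, Serpinf1, Flrt2, Ifi44, Dnm3os, Col8a1, Lox, Tceanc2, Foxc2 and Fbxo39, between 149-fold and 461-fold lower. Twist2, a mesenchymal bHLH repressor, was at -3.94 in OM2i-iPSC against 4.90 in MEF. Lox, the enzyme that crosslinks collagen, was at -3.62 in OM2i-iPSC against 3.93 in MEF, and Foxc2, a forkhead factor of mesenchyme, was 159.8-fold lower.

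The fibroblast program was lost across all 4 of its lists. Of 113 members with a fold (116 listed), 94 were lower in OM2i-iPSC by 2-fold or more, 82 of them by 4-fold, 8 were higher and 11 lay within 2-fold, with a median difference of -3.20. Among all genes compared, 23.8% were at least 2-fold lower. Of the 89 members above the 75th percentile in MEF, 83 were at least 2-fold lower. Cells with less of a fibroblast RNA and fewer fibroblasts in the culture cannot be told apart in these bulk samples.

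Matrix genes were lower in 29 of 36, with a median of -3.57. Dcn, the collagen-binding proteoglycan decorin, was at -4.39 in OM2i-iPSC against 4.59 in MEF and was at least 506-fold lower. Col1a1, a chain of collagen I, was at least 321-fold lower, Lum, the proteoglycan lumican, at least 248-fold, and Fbln5, an elastic fibre protein, at least 196-fold. All 4 were above the 75th percentile in MEF and not well above background in OM2i-iPSC. Col1a2, the partner chain of Col1a1, kept a level of 1.56 in OM2i-iPSC and was at least 12.1-fold lower with MEF saturated. Sparc, a matrix glycoprotein, was 4.16-fold lower and still at 3.01 in OM2i-iPSC against 5.06 in MEF. The members that were higher were Eln, the elastin gene, by at least 11.8-fold at -3.20 in OM2i-iPSC and -6.76 in MEF, Spon2, a secreted matrix protein, by 2.04-fold, and Mfap2.

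Mesenchymal identity genes were lower in 24 of 27, with a median of -3.48. Besides Twist2, the homeobox gene Prrx1 was at least 118-fold lower, at -1.79 in OM2i-iPSC and 5.09 in MEF, and Pdgfra, the PDGF receptor of mesenchyme, was 80.8-fold lower. The 5 other probes of Prrx1 with a fold ran from -7.09 to 1.63. Thy1, a surface marker of fibroblasts used to follow reprogramming, was at 0.17 in OM2i-iPSC against 4.77 in MEF, 24.4-fold lower. The EMT repressors Zeb2, Snai2, Twist1 and Zeb1 were 26.6-fold, 11.7-fold, 10.9-fold and 8.94-fold lower, and Vim, the mesenchymal filament vimentin, 10.1-fold by its brightest probe. The other probe of Vim was higher by at least 3.20, so its direction depended on the probe. Thy1, Vim and Zeb1 remained above the 75th percentile of the OM2i-iPSC array despite these differences. Eng, a TGF-beta co-receptor, was 2.74-fold higher, at -0.68 in OM2i-iPSC and -2.14 in MEF, and Cdh11 was the other member that was higher.

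Contractile genes were lower in 20 of 24, with a median of -1.95, the smallest shift of the 4 lists. Myl9, the myosin light chain of stress fibres, was at least 28.6-fold lower, Zyx, a focal adhesion protein, 25.2-fold, and Tpm2, a tropomyosin, 14.2-fold. Several members were lower yet still bright: Tagln, an actin-binding protein of smooth muscle, was at 3.91 in OM2i-iPSC and 5.07 in MEF, and Myh9, non-muscle myosin, at 4.04 in OM2i-iPSC and 5.09 in MEF, both with MEF saturated. The other probe of Myh9 was higher by 1.38. Tpm4, another tropomyosin, was at 3.17 in OM2i-iPSC and 4.67 in MEF, and Actn1, an actin crosslinker, at 2.52 in OM2i-iPSC and 3.63 in MEF. In all, 32 members of the 4 lists were at least 2-fold lower and still above the OM2i-iPSC 75th percentile. Des, the muscle filament desmin, was 4.01-fold higher at -1.21 in OM2i-iPSC and -3.21 in MEF.

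Matrix proteases and their inhibitors were lower in 21 of 26, with a median of -3.43. Serpinf1, a secreted serpin also known as PEDF, was 391-fold lower, and the metalloproteinases Mmp13, Mmp3 and Mmp10 were at least 306-fold, 130.3-fold and 42.5-fold lower. The urokinase pair went the other way, with the plasminogen activator gene Plau higher by at least 4.26 on the log2 scale, at -2.59 in OM2i-iPSC and -7.97 in MEF, and its receptor Plaur 3.22-fold higher. The MEF spot of Plau was not well above background, and its OM2i-iPSC level was in the lower part of that array.

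The signalling and secretion of fibroblasts were lower too, where 23.8% of all genes compared were at least 2-fold lower. TGF-beta genes were lower in 16 of 19 (median -3.35), among them the ligand genes Tgfb1, Tgfb2 and Inhba, at least 102-fold, 51.9-fold and at least 186-fold lower, and the receptor Tgfbr2, at -2.55 in OM2i-iPSC against 2.53 in MEF. The inhibitor Smad7 was 2.93-fold higher and the co-receptor Tgfbr3 at least 3.67-fold higher, with its OM2i-iPSC spot saturated. Stromal secreted factors were lower in 14 of 21 (median -2.40), with the BMP antagonist Grem1 68.2-fold lower and Igfbp5, an IGF-binding protein, 132-fold. The other probe of Igfbp5 differed by only -0.74. Sfrp2, a secreted Wnt antagonist, stayed bright, at 2.55 in OM2i-iPSC and 3.05 in MEF. The factors Igfbp2, 3.85-fold, Pdgfa, 3.28-fold, and Fgf2, 2.17-fold, were higher. Fgf2 lay near background, at -4.20 in OM2i-iPSC and -5.32 in MEF, and the other probe of Pdgfa differed by -0.29.

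Immune genes were lower as well, and the chemokine list had the lowest median of the 28. Among all genes compared, 23.8% were at least 2-fold lower. Of the 4 blood cell markers, Adgre1 was at 0.59 and Cd68 at 0.08 in MEF, and Csf1r and Ptprc at -1.77 and -3.44. Which cells of the MEF culture gave the immune signals was not tested. Chemokines, interleukins and their receptors were lower in 17 of 19, with none higher and a median of -5.03. Il1rl1, the receptor of interleukin 33, was at -6.78 in OM2i-iPSC against 5.11 in MEF, at least 838-fold lower with MEF saturated and OM2i-iPSC not well above background. Cxcl1, a neutrophil chemokine, was at least 105-fold lower and Osmr, the oncostatin M receptor, at least 114-fold. The interferon response list had 16 of 23 members lower (median -3.06), with the antiviral genes Rsad2, Ifit3 and Usp18 101-fold, at least 98.7-fold and at least 88.0-fold lower. The other probe of Rsad2 was higher by 1.92. Mx1, an antiviral GTPase, and Ifitm1, a membrane protein that also marks early germ cells, were 9.04-fold and 7.46-fold higher. The antigen presentation list had 6 of 11 lower (median -1.01). B2m, the light chain of MHC class I, was at least 30.6-fold lower, at 0.22 in OM2i-iPSC and 5.15 in MEF, whereas the immunoproteasome genes Psmb8, at 2.23 in OM2i-iPSC and 2.47 in MEF, and Psmb9, at 0.83 in OM2i-iPSC and 0.93 in MEF, differed little and Psmb10 was 2.84-fold higher.

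Growth control genes and positional genes held more lower than higher members, by margins that depended on the processing. Over all genes compared, 36.1% were at least 2-fold higher and 23.8% lower. Of 14 cell cycle inhibitors and p53 targets, 8 were lower and 2 higher (median -1.67, or -0.50 under quantile normalization). Cdkn2a, the locus of p16 and Arf, was at -3.33 in OM2i-iPSC against 0.33 in MEF, and Cdkn2b was 11.6-fold lower and Cdkn1a, the p21 gene, 7.40-fold lower. Cdkn2c and Cdkn2d, of the same INK4 family, were 5.93-fold and 3.29-fold higher. Hox cluster genes, which record body position in fibroblasts, numbered 19 lower and 6 higher among 33 (median -1.95). Where both arrays had to be well above background, 12 Hox genes were lower and the median was -0.14. Hoxc13, Hoxa9 and Hoxd13 were 27.0-fold, 23.3-fold and 18.5-fold lower, while Hoxc5 and Hoxb13 were 14.6-fold and 13.7-fold higher, and Hoxb6 was bright on both arrays, at 4.38 in OM2i-iPSC and 3.53 in MEF.

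Against this loss, 8 members of the 4 fibroblast lists stayed high by their brightest probe, meaning that the OM2i-iPSC level was above the 75th percentile and less than 2-fold below MEF. Of the 89 members above the 75th percentile in MEF, 5 did so (5.62%), against 3979 of 8004 genes in all (49.7%). The 8 were Mfap2, Cdh11, Tpm1, Actg2, Mmp11, Adamts5, Adam19 and Plaur. Mfap2, a microfibril protein, was at 0.93 in OM2i-iPSC and -1.32 in MEF, and Cdh11, the cadherin of mesenchyme, at 3.11 in OM2i-iPSC and 1.45 in MEF. Mmp11, stromelysin 3, was nearly equal, at 2.91 in OM2i-iPSC and 2.98 in MEF, and Actg2, a smooth muscle actin, was at 0.86 in OM2i-iPSC and 1.39 in MEF. Adam19, a membrane protease, was at 3.58 in OM2i-iPSC and 4.20 in MEF, Tpm1, a tropomyosin, at 2.17 in OM2i-iPSC and 2.95 in MEF, Adamts5, an aggrecanase, at 0.09 in OM2i-iPSC and -0.25 in MEF, and Plaur at 0.81 in OM2i-iPSC and -0.88 in MEF. Cdh11 was also bright in ES, at 2.67, and in PM2i-iPSC, at 3.1, and Mmp11 at 3.63 in ES and 2.82 in PM2i-iPSC. Actg2, in contrast, was at -0.27 in ES and -1.88 in PM2i-iPSC.

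For most of these genes the answer depended on the probe. Of the 8, 6 had another probe with a fold, and for 5 of these 6 every other probe was at least 2-fold lower in OM2i-iPSC. The same held for Col3a1, a chain of collagen III and a fibroblast marker, whose brightest probe was at -0.48 in OM2i-iPSC and -0.33 in MEF, a difference of -0.15. Its other probe with a fold was at -4.71 in OM2i-iPSC, not well above background, and 1.70 in MEF, at least 79.2-fold lower. The 2 probes lie 27.2 kb apart on the plus strand of mouse chromosome 1 (build mm7), at chr1:45558167-45558226 for the brightest and chr1:45585395-45585454 for the other. Both carry the same RefSeq accession in the array file. The opening 30 of the 60 bases of each probe, as the array file gives them, are shown because the probes disagree on whether the gene was lost; no base is capitalised, since no motif was searched.
Col3a1, brightest probe: gccagaaccatgtcaaatatgtgtctgtga
Col3a1, other probe: ataagccaaactctctgaaaccccagcaaa

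Cdh11 showed the same split over 3 probes of 1 accession, on the minus strand of chromosome 8. The brightest probe, at chr8:101261817-101261876, was 3.17-fold higher in OM2i-iPSC. The other probes lie 34 and 34.4 kb away, at chr8:101227807-101227866 and chr8:101227384-101227443. The probe at 34 kb was at -4.40 in OM2i-iPSC and 2.59 in MEF, 127-fold lower. The probe at 34.4 kb was at -2.49 in OM2i-iPSC and 4.90 in MEF, 167-fold lower. The pair near each other agreed, and the distant, brightest probe ran the other way. Their opening 30 bases follow for the same reason.
Cdh11, brightest probe: ctcagggacaaccaaagtgacgatcactct
Cdh11, probe at 34 kb: tatttaaatgaaggagaagtccacggtgaa
Cdh11, probe at 34.4 kb: tattttagtatacatacaaatatcagtatt

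Mfap2, on chromosome 4, was 4.75-fold higher by its brightest probe, and its other probe, 1.71 kb away, was at -2.80 in OM2i-iPSC and 0.69 in MEF, 11.3-fold lower. The other probes of Tpm1 were lower by 1.94 and 2.79 on the log2 scale and those of Adam19 by 2.08 and 2.35. The other probe of Adamts5 was not well above background in OM2i-iPSC and lower by at least 1.33. Only for Plaur did the other probe stay within 2-fold, at a difference of -0.45, and Mmp11 and Actg2 had a single probe. With each gene taken as the median of its probes, 3 members stayed high, Actg2, Mmp11 and Sparc. With each array centred on its median 5 did, and under quantile normalization 14. Among the 94 members that were lower by their brightest probe, 43 had another probe and 28 of these had every other probe at least 2-fold lower. Over all genes at least 2-fold lower, 42.8% of 2920 other probes were at least 2-fold lower and 24.8% at least 2-fold higher.

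**Figure D3:**
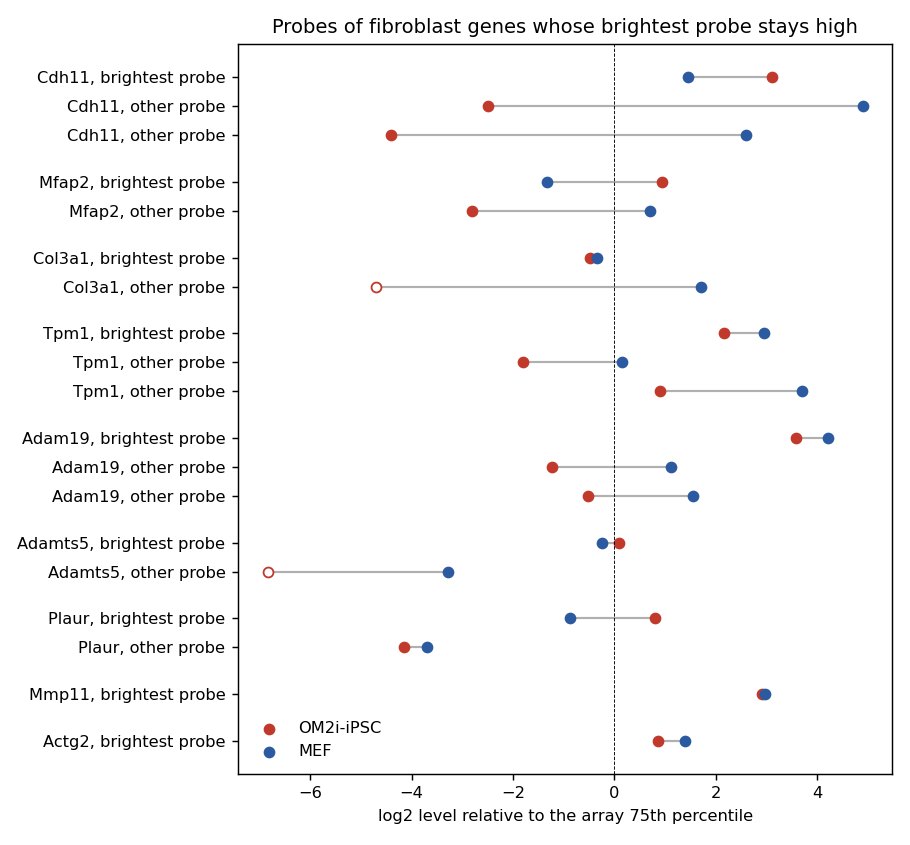
Level of each probe in OM2i-iPSC (red) and MEF (blue), as log2 signal relative to the 75th percentile of the array (horizontal axis), for Col3a1 and the 8 fibroblast list members that stayed high, with 1 array each. Open points were not well above background. The other probes of Cdh11, Mfap2, Col3a1, Tpm1, Adam19 and Adamts5 show a lower red than blue point, unlike the brightest probes of Cdh11 and Mfap2.

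A wider class did not depend on the lists. Of 2505 genes whose ES level lay 4-fold or more below MEF, 2281 (91.1%) were lower by 2-fold or more in OM2i-iPSC as well. Their median difference was -2.77 over the 2505, and 64 (2.55%) stayed high. In PM2i-iPSC 2381 were lower and 25 stayed high, of which 8 were shared, 8 of 64 and 8 of 25. Over all genes compared, 23.8% were lower in OM2i-iPSC by 2-fold or more. Of the 2505, 1529 were above the 75th percentile in MEF, and staying high set no level for MEF. Among all genes above that percentile in MEF, 49.7% stayed high in OM2i-iPSC. All these differences share the MEF array. Ranked by how far ES lay below MEF, the 12 leading genes with a symbol that stayed high in OM2i-iPSC were Uty, Tent5b, Ccnd2, S100a1, Mirg, Fcgr4, Gvin1, Krt34, Ank2, Cgref1, Olfr812 and H13.

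Uty, a Y-linked relative of a histone demethylase, was at 0.22 in OM2i-iPSC and 0.09 in MEF, while it was not well above background in ES, at -5.35, or in PM2i-iPSC, at -6.58. Tent5b, a terminal nucleotidyltransferase, was at 1.46 in OM2i-iPSC and 1.58 in MEF, against -2.55 in ES. Mirg, a non-coding RNA of the imprinted Dlk1 to Dio3 region, was at 0.89 in OM2i-iPSC and -0.95 in MEF, and -4.33 in ES. Each of these was close to MEF or above it in OM2i-iPSC and far lower in ES. S100a1, a calcium-binding protein, was 1.91-fold lower, at 0.31 in OM2i-iPSC and 1.25 in MEF, and Ank2, a membrane-skeleton ankyrin, was at 2.48 in OM2i-iPSC and 2.81 in MEF. Fcgr4, an IgG receptor, was at 0.10 in OM2i-iPSC and -0.46 in MEF, Krt34, a hair keratin, at 0.19 in OM2i-iPSC and -1.47 in MEF, and H13, a signal peptide peptidase, at 2.61 in OM2i-iPSC and 2.74 in MEF. Cgref1 was at 0.42 in OM2i-iPSC and 0.63 in MEF and Olfr812, an olfactory receptor, at 2.91 in OM2i-iPSC and 3.64 in MEF. The other probes of H13 were higher in OM2i-iPSC than in MEF by 2.74 and at least 2.87 on the log2 scale. The other probe of Uty with a fold was higher by 2.08, and those of Ank2 by 0.32 and 1.21.

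Ccnd2, the cyclin D2 gene, was again a matter of probes. Its brightest probe was at 4.27 in OM2i-iPSC and 4.12 in MEF with OM2i-iPSC saturated, and its other probes were lower by 4.38 and 4.71. Gvin1, an interferon-inducible GTPase, was at 0.02 in OM2i-iPSC and 0.16 in MEF, and its other probes were lower by at least 5.24 and 5.34. Of the 64 genes, 34 had another probe and 7 of these had every other probe at least 2-fold lower. Centred on the median, 74 genes stayed high, of which 28 were among the 64, and taken as the median of their probes 47 did, of which 36 were.

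**Figure D4:**
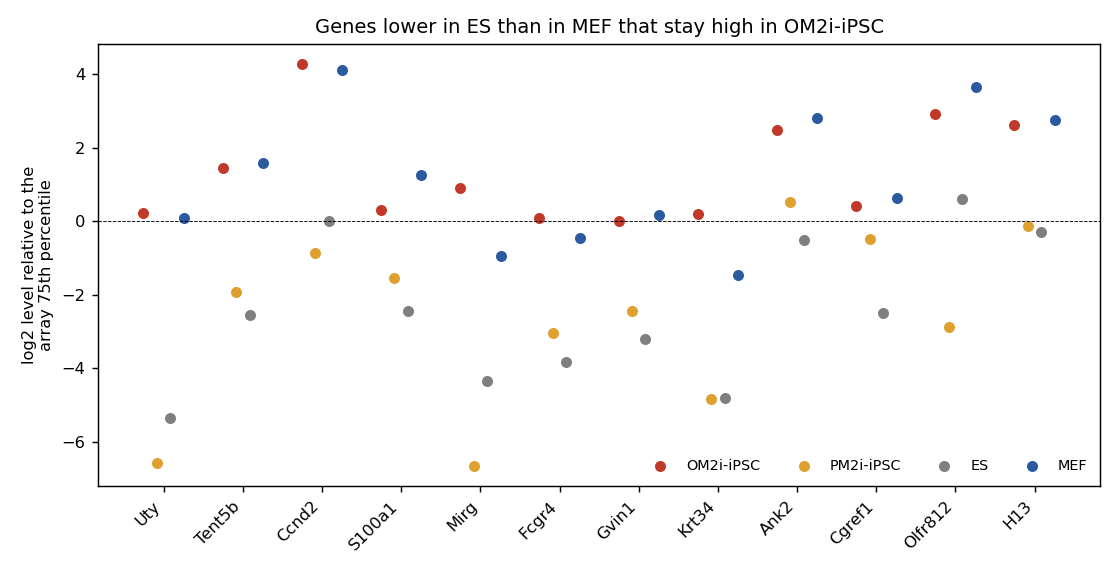
Level of the 12 leading genes that lay 4-fold or more below MEF in ES and stayed high in OM2i-iPSC, as log2 signal relative to the 75th percentile of each array (vertical axis), with 1 array for each cell type. OM2i-iPSC (red) lies less than 2-fold below MEF (blue) or above it, PM2i-iPSC is orange, and ES (grey) lies below MEF in every gene, as the choice of genes requires.

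Proliferation and chromatin genes held members of both directions, at shares of higher members near the 36.1% of all genes compared. The lower share of all genes compared was 23.8%. Of 32 cell cycle genes, 11 were higher, 3 lower and 18 within 2-fold, with a median of 0.16 that became -0.58 when arrays were centred on the median. Mycn, a Myc family gene of stem cells, was at 2.79 in OM2i-iPSC against -4.01 in MEF, 111-fold higher, while Myc itself was at 1.88 in OM2i-iPSC and 1.93 in MEF. Ccnd1, cyclin D1, was at least 7.27-fold lower, and the spindle and licensing genes Bub1 and Cdt1 were 5.34-fold and 5.01-fold higher. DNA methylation and chromatin genes had 12 higher and 9 lower of 31 (median 0.68, or -0.07 centred on the median). Dnmt3b, a de novo DNA methyltransferase, was at least 72.7-fold higher and Tet1, a methylcytosine oxidase, 18.6-fold higher. Among Polycomb genes Pcgf2 and Cbx7 were 239-fold and 90.9-fold higher, whereas Cbx8 was at least 22.3-fold lower. Bmi1, the Polycomb subunit that other samples of the series were transduced with, was at -4.29 in OM2i-iPSC against 0.37 in MEF, 25.4-fold lower, and its other probe was higher by 3.07, so its direction depended on the probe.

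The pathways that oxysterol and 2i address did not share a direction. Over all genes compared, 36.1% were at least 2-fold higher and 23.8% lower. Of 14 Hedgehog genes, 8 were higher and 5 lower (median 1.46). The target Gli1 was 4.28-fold higher, at -3.27 in OM2i-iPSC and -5.37 in MEF. The target Ptch1 was 2.13-fold higher, at -2.55 in OM2i-iPSC and -3.64 in MEF, and its other probe differed by -0.53. Both were below the 75th percentile on both arrays. Gli2, a transcription factor of the pathway, was 10.2-fold higher. Gli1, Ptch1 and Gli2 also exceeded MEF in ES, by 4.68-fold, 5.56-fold and 9.20-fold. In PM2i-iPSC they did so by 5.47-fold, 3.31-fold and 6.98-fold. Smo, the membrane transducer, was at 1.66 in OM2i-iPSC against 4.44 in MEF, 6.86-fold lower. The oxysterol and sterol response list had 12 of 25 lower and 1 higher (median -0.74). The LXR target genes Abcg1, a sterol exporter, and Mylip, a ubiquitin ligase, were 14.3-fold and 5.30-fold lower. Insig1, a sterol sensor of the endoplasmic reticulum, was the higher one, by 10.9-fold at -2.43 in OM2i-iPSC and -5.87 in MEF.

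Of 18 MEK-ERK and Wnt targets, 7 were higher and 8 lower, where 36.1% of all genes compared were higher and 23.8% lower. Their median of -0.39 became 0.061 under quantile normalization and 0.51 with the median over probes. The ERK targets Phlda1, Ier3 and Egr1 were 37.3-fold, 8.20-fold and 6.52-fold lower, whereas Etv5, an ETS factor also induced by ERK, was 12.1-fold higher. The Wnt target Sp5 was 15.9-fold higher, at 1.32 in OM2i-iPSC and -2.67 in MEF, and Axin2, a Wnt feedback gene, was 2.04-fold lower, at -2.42 in OM2i-iPSC and -1.39 in MEF. Neither pathway's targets moved together. Of 19 imprinted genes, expressed from 1 parental allele, 7 had the higher level in OM2i-iPSC and 10 the lower (median -1.05). The share of higher members was near the 36.1% of all genes compared, whereas the share of lower members was above their 23.8%. H19, a growth-restraining non-coding RNA, was at -3.29 in OM2i-iPSC against 3.74 in MEF, and its neighbour Igf2, a fetal growth factor, was 45.5-fold lower, while Phlda2, Mest and Snrpn were 19.8-fold, 17.6-fold and 16.7-fold higher. Of 11 glycolysis genes with a fold, 5 were higher and 1 lower. Their median of 0.58 became -0.16 when arrays were centred on the median. The list was led by the glucose transporter Slc2a3, at least 34.4-fold higher with its OM2i-iPSC spot saturated, and Ldhb, a lactate dehydrogenase subunit, 4.39-fold higher. Slc2a1, Aldoa, Pgk1 and Ldha were saturated on both arrays and had no fold. The other probes of Aldoa, Pgk1 and Ldha differed by -0.91, -1.51 and 0.11.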

How the data were processed

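RNA of 8 mouse samples was measured, and 2 Agilent 1-colour arrays, OM2i-iPSC and MEF, were compared. The deposited files hold spot intensity, which came from Feature Extraction 10.7.3.1 (OM2i-iPSC) and 9.5.3.1 (MEF), per the file headers. The deposited series table of intensity was used as an alternative. The processed signal is background-subtracted; each array was divided by its 75th percentile over non-control spots and log2-transformed. Outlier spots were dropped and spots of a probe averaged. Each gene took the values of 1 probe, the one with the highest mean over both arrays. Probes were named through RefSeq accession (22944), symbol (6664) or an older symbol (3108) of the GRCm38.p6 gene table, and 8458 kept the name in the file. Calls are differences of at least 2-fold, with no test.

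Genes named are Nr5a2, Cdx2, Col3a1, Pou5f1, Nanog, Sox2, Thy1 and Cdh1, the 10 highest and 10 lowest measured differences, up to 5 and 3 members of each of 28 lists in the major and minor direction, and the genes that stay high (up to 12 from the wider class). Others in the text were picked from the lists after their values were seen. Some genes that this rule names are not reported here. The members and lists were chosen with earlier results of these data known. Of 600 list entries, 12 had no match: Rigi, Psme2, Nlrc5, Cd74, Hoxc11, Fgf4, L1td1, Trim71, Prdm14, Ascl2, Hbb-b1 and Dusp5. The contrast was tested on simulated data. Alternatives were centring on the median, quantile normalization, the series table, normexp correction of median signals (offset 50, limma 3.58.1), stricter and absent detection filters, the median over probes and, added after seeing the data, a single detection floor. Python 3.11.15, numpy 2.4.6, pandas 2.3.3 and matplotlib 3.10.9 were used.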

Additional observations from a re-analysis of the deposited data

How the results depend on the processing

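No paired analysis was possible because each group has 1 array and no fit was made. Without a filter on dim probes, 13173 genes exceeded MEF by 2-fold or more in OM2i-iPSC, and with arrays centred on their medians 7865 lay as far below it. The number of fibroblast list members that stayed high was 5 centred on the median, 14 under quantile normalization and 3 with the median over probes. The count of 64 genes in the wider class ranged from 47 to 74 over the 8 alternatives, and that of fibroblast list members at least 2-fold lower from 74 to 99. Taking the median over probes turned the direction of Cdh11 (-6.99), Mfap2 (-0.62), Krt7 (-0.76), Xist (-1.41), Dazl (0.49), Myh9 (0.17) and Stat3 (0.34), and of the medians of the mesoderm (-0.065) and MEK-ERK and Wnt lists (0.51). The MEK-ERK and Wnt median also turned under quantile normalization (0.061), that of the glycolysis list without a filter on dim probes (-0.56), and, centred on the median, those of the glycolysis (-0.16), endothelial and blood (-0.35), cell cycle (-0.58) and chromatin lists (-0.065). No direction called at 2-fold of the other 181 named genes with a fold turned under any alternative. The MEF array reached further down in signal than the OM2i-iPSC array, and a single detection floor for both left 7067 genes higher and 5229 lower. The causes of these changes were not tested beyond what each alternative does by construction. Levels near background and saturated spots give bounds only, and no value here carries variation between cultures.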

Other observations

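Genes on the Y chromosome did not all run the same way. Ddx3y, an RNA helicase, was at 1.09 in OM2i-iPSC and 2.36 in MEF, and Eif2s3y, a translation factor subunit, at -0.66 in OM2i-iPSC and 0.84 in MEF, whereas in ES and PM2i-iPSC both lay at -6.18 or lower, not well above background. Kdm5d, a histone demethylase, was not well above background in OM2i-iPSC, at -6.62, or in PM2i-iPSC, at -6.55, and was at -4.07 in ES and 1.37 in MEF. Xist, the non-coding RNA of X inactivation, was at 1.67 in OM2i-iPSC and -0.10 in MEF by its brightest probe, and its 3 other probes were lower by 1.0 to 2.33. The labels give no sex for these cells.

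Gene families grouped by symbol, chosen after the values were seen, are set beside all genes compared, of which 36.1% were at least 2-fold higher and 23.8% lower. Collagens were at least 2-fold lower in 22 and higher in 9 of 36 with a fold, with a median of -1.88. Of 35 keratins, 21 were higher and 2 lower (median 1.54), of 13 claudins 9 and 3 (median 3.28) and of 17 Wnt ligands 11 and 2 (median 1.27). Testis-expressed Tex genes numbered 20 higher and 2 lower among 27 (median 2.07), and Rhox homeobox genes higher in 6 and lower in none of 7 (median 2.05). Olfactory receptors, expected to be silent, had 221 of 356 with a fold (491 compared) at least 2-fold above MEF and a median of 1.70. The keratin and Wnt ligand medians lay below that value, and those of the claudins, Tex genes and Rhox genes lay above it. Whether any of these families gained more than other dim genes was not tested. Subunits of respiratory complex I stayed close, with a median of -0.10 over 36.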
